A study of Mus musculus with 12 samples.

Results

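Chemokines are small secreted proteins that guide white blood cells, and their receptors sit on the surface of the cells that follow them. All genes of these families were examined in mouse liver after a liver carcinogen, retinoic acid or a small interfering RNA (siRNA). Members were every gene whose name on the array was Ccl, Cxcl, Xcl, Cx3cl, Ccr, Cxcr, Xcr or Cx3cr followed by a number. This gave 55 of 34741 genes, carried by 71 of 55681 probes. Each gene was read from its brightest probe, and 32 of the 55 passed a filter of being well above background on 2 or more arrays and were tested, among 21181 genes tested in all.

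The arrays hold liver RNA of male ICR mice, 5 weeks old and then adapted for 1 week, at day 2 and day 7. The groups were diethylnitrosamine (DEN, a carcinogen that alkylates DNA) at 80 mg/L of drinking water, both agents together (ATRA+DEN), retinoic acid (all-trans form, ATRA, made in the body from vitamin A) at 30 mg/L, G0s2 siRNA, control siRNA and vehicle (water). The labels call the genotype wild type in the 8 arrays without siRNA, control with control siRNA and G0s2 knockdown with G0s2 siRNA. The daily intake was put at about 400 µg of DEN and 150 µg of ATRA. The siRNA was injected intravenously with a lipid carrier at 1.6 nmol, on the day before DEN according to the protocol. The labels of the siRNA arrays name no DEN, so whether those mice drank it is not stated, nor is it stated whether an array holds 1 animal or a pool.

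Each of the 12 groups has 1 array, so errors exist only for effects averaged over arrays of different treatments or days, and p-values measure the spread between these arrays. The arrays lie on 4 slides. The day 2 arrays without siRNA share slide 1, and the 2 with siRNA share slide 2. Of day 7, DEN and vehicle share slide 3, and ATRA+DEN, ATRA, G0s2 siRNA and control siRNA share slide 4. On 3 arrays of day 7 the treatment characteristic differs from the title, and titles were used. The share of probes well above background ran from 41.0% to 50.7% by array. G0s2, the gene aimed at, had a level of 1.99 with G0s2 siRNA and 3.84 with control siRNA at day 2, and 2.26 and 3.45 at day 7. Hepatocyte markers such as Alb and Ttr were well above background on every array.

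As background, most chemokines bind receptors of the same subfamily, CC chemokines to Ccr receptors and CXC chemokines to Cxcr receptors, and the receptors signal through inhibitory G proteins to turn the cell towards the source. In liver, resident macrophages (Kupffer cells), endothelium, stellate cells and hepatocytes release them. Ccl2 draws monocytes that carry Ccr2. Cxcl1 draws neutrophils through Cxcr2, and Cxcl9, Cxcl10 and Cxcl11 are induced by interferons and draw T and NK cells that carry Cxcr3.

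Levels are log2 intensities with the 75th percentile of the array set to 0, and probes of different genes were not ranked against each other. Of the 55 genes, 17 were well above background on all 12 arrays and 19 on none. All 3 Cxcr3 ligands were measured, Cxcl11 by a probe whose values are uncertain (below), against 1 of 5 neutrophil-attracting CXC chemokines, namely Cxcl1. Cxcl2, Cxcl3, Cxcl5 and Cxcl15 were not well above background on any array, nor were the neutrophil receptors Cxcr1 and Cxcr2 or the Cxcl12 receptor Cxcr4. Of 11 genes each, 7 inflammatory CC chemokines and 7 CC receptors were measured. Just inside the filter, on 2 arrays, stood Ccl8, Ccl17, Cxcr7 and Ccr10, and just outside it, on 1 array, Ccl7, Ccl20, Ccr9 and Xcl1. Ccl7, Ccr9 and Xcl1 were well above background only on the control siRNA array of day 2.

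Several members kept a narrow range over the 12 arrays. Cxcl12, which holds and recruits cells through Cxcr4, lay between 5.80 and 6.78, and Ccl9, a mouse CC chemokine that binds Ccr1, between 4.72 and 6.16. Ccl27a, a ligand of Ccr10, lay between 1.04 and 1.74, and Ccl25, a ligand of Ccr9, between 0.48 and 1.87. Ccl6, another mouse ligand of Ccr1, lay between 1.08 and 2.52. Others varied widely: Cxcl14 lay between -0.49 and 3.75, Cxcl9 between -0.25 and 4.51, and Cxcl13, which attracts B cells through Cxcr5, between -5.93, not well above background, and 0.31. The heat map of the members by array shows these ranges.

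**Figure D1:**
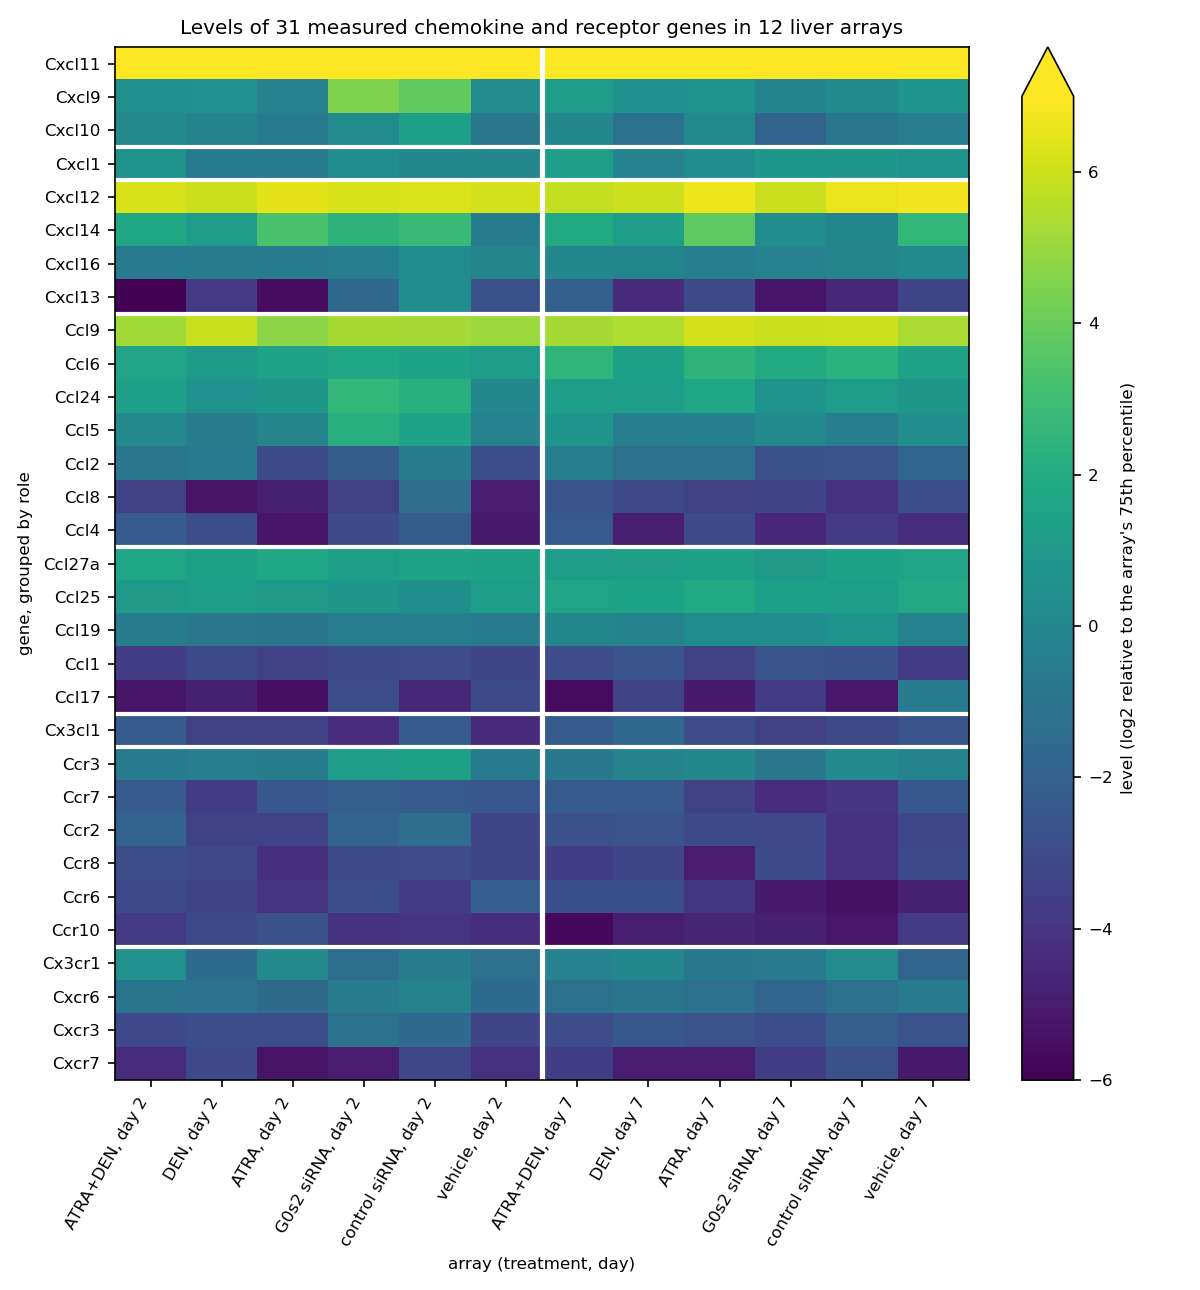
Level (log2, 75th percentile of the array set to 0) of 31 measured genes in 12 arrays, day 2 left and day 7 right of the thick line, with roles separated by thin lines. Cxcl11 exceeds the colour scale on every array, and Cxcl9 stands at 4.51 and 3.81 in the G0s2 siRNA and control siRNA arrays of day 2.

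Probes limit what can be said of 4 genes. The brightest Cxcl11 probe, at chr5:92788567-92788626 on the minus strand of mm9, lay between 8.35 and 10.38, and 19 probes of 19 other genes share a run of 16 bases with it. A stretch of it, bases 14 to 43 of the probe, is shown because its capitals, bases 27 to 42, also occur in 12 of those other probes on either strand.
Cxcl11 probe: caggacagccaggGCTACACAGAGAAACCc
Values of Cxcl11 are therefore uncertain. Its dimmer probe followed the brightest over the 12 arrays (r = 0.95). That probe lies beside the brightest and shares such a run with 2 other probes, so this agreement cannot show that either reads Cxcl11. The brightest Ccl27a probe shares 16 bases with probes of 2 other genes, and another Ccl27a probe ran against it over the 12 arrays (r = -0.65). The second probes of Cxcl9 (r = 0.98), Cx3cr1 (r = 0.93), Cxcr6 (r = 0.89) and Cxcl12 (r = 0.83) followed the brightest over the same 12 arrays, while another probe of Ccl19 (r = -0.17) and one of Ccl25 (r = -0.30) did not. The brightest Ccl25 probe shares a run of 16 bases with a probe of 1 other gene.

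DEN was compared with the matching array without it in 4 pairs, to see what the carcinogen does to these genes. None of the 32 members passed an adjusted p of 0.05 in limma, and 0% of all genes tested did, up or down. At an unadjusted p under 0.05, 3 members were higher and 2 lower, against 5.47% and 6.77% of all genes. The fitted difference was above 0 for 7 of 7 inflammatory CC chemokines, with a median of 0.24 on the log2 scale and values down to 0.01 for Ccl6, for 0 of 4 other CXC chemokines, with a median of -0.45, and for 1 of 5 homeostatic and other CC chemokines, with a median of -0.18. It was above 0 for 45.8% of all genes. These counts include members near background. Among the arrays without siRNA, Ccl4 was well above background only with DEN at day 2 and with ATRA+DEN on both days. Ccl8 was so only with ATRA+DEN at day 7, and Cxcl13 only with vehicle at day 2 and ATRA+DEN at day 7. The median was 0.12 over the 32 members and -0.02 over all genes. As RNA of whole liver was measured, fewer cells of a type and less RNA per cell cannot be told apart.

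Ccl2 had the largest fitted difference. At day 2 its level was -0.66 with DEN and -0.92 with ATRA+DEN, against -2.89 with vehicle and -3.01 with ATRA. At day 7 it was -1.19 with DEN and -0.45 with ATRA+DEN, against -1.77 with vehicle and -1.24 with ATRA. It was higher in 4 of 4 pairs, and the arrays with DEN lay above those without it on both days, though at day 7 DEN and ATRA were apart by less than the SD of their spots. The mean log2 difference was 1.43 (SE 0.38, limma adjusted p = 0.285). The probe is spotted 10 times on each array, and the SD of these spots lay between 0.0856 and 0.407, as the plot of Ccl2 by array shows.

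**Figure D2:**
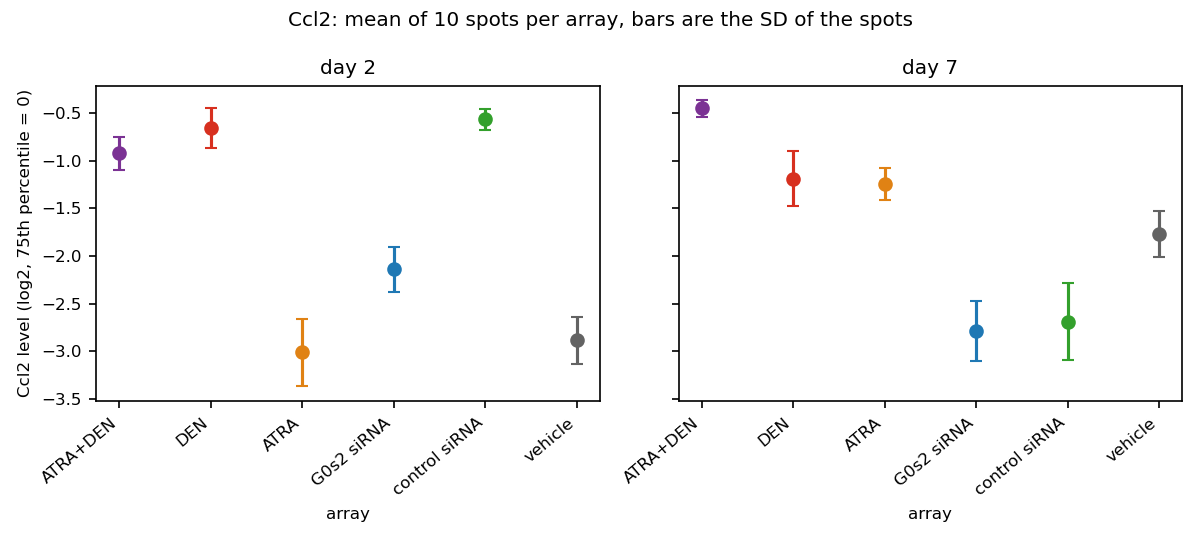
Mean Ccl2 level (log2, 75th percentile set to 0) of the 10 spots on each array, day 2 left and day 7 right, with bars for the SD of the spots, which is technical. At day 2 the arrays with DEN, ATRA+DEN and control siRNA lie between -0.92 and -0.56, and the other 3 at or below -2.14.

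Cx3cl1, a membrane-bound chemokine that holds cells carrying Cx3cr1, was well above background on 3 of 4 arrays with DEN and 2 of 4 without. At day 7, where all 4 arrays were, it was -1.59 with DEN and -2.24 with ATRA+DEN, against -2.56 with vehicle and -2.95 with ATRA. At day 2 it was above background with ATRA+DEN alone, at -2.29, so the fitted difference over the 4 pairs (limma adjusted p = 0.288) has no exact size. Cxcr7, a scavenging receptor for Cxcl12, was well above background on none of these 8 arrays, so its difference has no fold.

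Cxcl12 was lower in 4 of 4 pairs. At day 2 it was 5.94 with DEN and 6.22 with ATRA+DEN, against 6.11 with vehicle and 6.48 with ATRA. At day 7 it was 5.99 with DEN and 5.80 with ATRA+DEN, against 6.78 with vehicle and 6.68 with ATRA. The arrays with and without DEN overlapped at day 2 and not at day 7. The mean log2 difference was -0.52 (SE 0.17, limma adjusted p = 0.348), and it was -0.54 by the second probe. Ccl27a and Ccl25 were lower in 4 of 4 pairs as well, by means of -0.20 and -0.18, both with limma adjusted p-values above 0.4. For Ccl27a the direction depends on the probe. The probe that ran against the brightest gave a mean of 0.28, and the remaining probe gave -0.18.

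Genes around the family did not pass either. The fitted difference was above 0 for 9 of 10 interferon response genes, with a median of 0.58, and Mx2, an antiviral gene induced by interferon, was higher by 1.69 (SE 0.16, limma adjusted p = 0.135) in 4 of 4 pairs. Of 12 inducing cytokine and NF-kB genes 10 lay above 0, Nfkb2 by 0.53 (SE 0.09, limma adjusted p = 0.227). Ackr1, which takes up chemokines on endothelium, was lower in 4 of 4 pairs, with a mean log2 difference of -0.52 (SE 0.22, limma adjusted p = 0.408). Of the Kupffer cell and macrophage markers 2 of 10 lay above 0, with a median of -0.05, and their part in these differences was not tested.

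ATRA was compared with the matching array without it in 4 pairs among the 8 arrays without siRNA. At day 7 both arrays with ATRA were on slide 4 and both without it on slide 3. ATRA and slide therefore cannot be told apart at that day. Again 0 of 32 members passed in limma, with 0% of all genes in either direction, while an unadjusted p under 0.05 was found for 5 higher members and 1 lower, against 3.48% and 2.33% of all genes. Cxcl14, a CXC chemokine made by epithelia, was higher in 4 of 4 pairs. At day 2 it was 3.25 with ATRA and 1.73 with ATRA+DEN, against -0.49 with vehicle and 1.20 with DEN. At day 7 it was 3.75 with ATRA and 1.90 with ATRA+DEN, against 2.63 with vehicle and 1.23 with DEN. The vehicle array of day 2 was the lowest of all 12, and the arrays with and without ATRA overlapped at day 7. The mean log2 difference was 1.52 (SE 0.58, limma adjusted p = 0.853).

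Ccl6 was 1.51 with ATRA and 1.61 with ATRA+DEN, against 1.11 with vehicle and 1.08 with DEN, at day 2. At day 7 it was 2.45 with ATRA and 2.52 with ATRA+DEN, against 1.50 with vehicle and 1.40 with DEN. Among the arrays without siRNA, those with ATRA lay above those without it on both days. The mean log2 difference was 0.75 (SE 0.16, limma adjusted p = 0.736). At day 7 slide and ATRA coincide. The siRNA arrays of slide 4, which had no ATRA, were at 2.33 with control siRNA and 1.90 with G0s2 siRNA. Cxcl10 was higher in 4 of 4 pairs by 0.55 (SE 0.19, limma adjusted p = 0.846), and by -0.01 when the day 7 groups were taken from the treatment characteristic. Ccl17, which draws T cells carrying Ccr4, was well above background on none of 4 arrays with ATRA and 1 of 4 without, the vehicle array of day 7, where it was -0.66. Its difference thus rests on that 1 array and has no fold (limma adjusted p = 0.755).

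The combination was tested as the difference of the DEN effect with and without ATRA, over the 2 days. None of 32 members passed in limma, with 0% of all genes in either direction, while an unadjusted p under 0.05 was found for 4 higher members and 1 lower, against 1.96% and 1.66% of all genes. This test has 4.03 degrees of freedom. Cxcl1 was 0.62 at day 2 and 1.31 at day 7 with ATRA+DEN, against -0.62 and -0.21 with DEN, -0.62 and 0.33 with ATRA, and 0.02 and 0.63 with vehicle. It was thus highest with ATRA+DEN among these 4 arrays on both days, and the interaction was 1.84 (SE 0.24, limma adjusted p = 1.00), with 1.87 and 1.81 on the 2 days.

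Ccr8, a receptor of regulatory T cells, and Ccl8, a ligand of Ccr8 in mouse, were each well above background on only 1 of these 8 arrays, that of ATRA+DEN at day 2 for Ccr8 and at day 7 for Ccl8, so no interaction is given. Ccl17 was well above background on 1 of these arrays, vehicle of day 7, and Cxcl13 on 2, ATRA+DEN of day 7 and vehicle of day 2, so no interaction is given for them. The interactions of Cxcl14, -1.83 (SE 1.12), and Ccl9, -0.68 (SE 0.59), reached the other side of 0 under another setting, as did that of Ccr10, a receptor of skin-homing cells, which was well above background on 2 of the 8 arrays. Beside the family, Ackr4, a scavenging receptor of Ccl19 and Ccl25, was not well above background with ATRA+DEN, DEN or ATRA on either day, against levels of -1.31 and -1.69, well above background, with vehicle at day 2 and day 7. With 3 of the 4 groups at background, its interaction has no value.

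**Figure D3:**
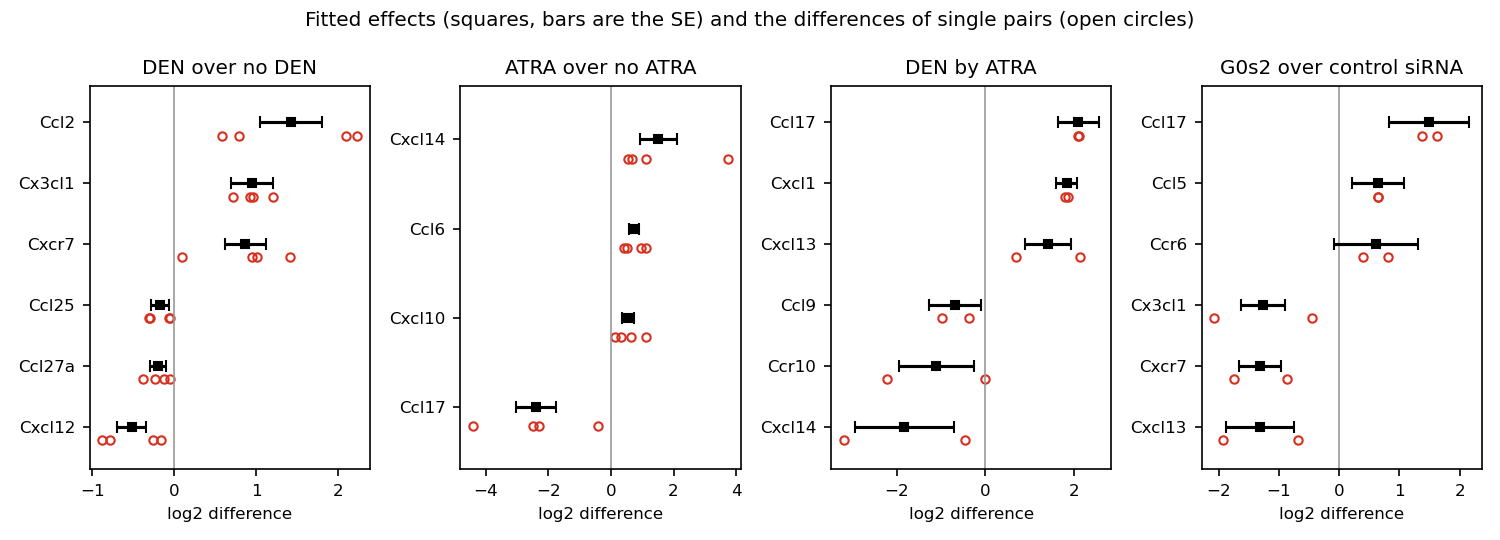
Fitted log2 differences of the named members in 4 comparisons (black squares, bars for the SE) with the differences of single pairs of arrays (open circles, or of single days for DEN by ATRA). Values of members not well above background are included and have no exact size. Positive values are higher with DEN, with ATRA, with both beyond their sum, or with G0s2 siRNA. Ccl2 had pair differences of 2.23, 2.09, 0.58 and 0.79 with DEN.

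G0s2 siRNA was compared with control siRNA in 2 pairs, for what lowering this lipase inhibitor does. None of 32 members passed in limma, with 0% of all genes either way. At an unadjusted p under 0.05, 0 members lay higher and 4 lower, against 4.09% and 2.71% of all genes. Cxcl10 was 0.28 and -1.86 with G0s2 siRNA at day 2 and day 7, against 1.34 and -0.87 with control siRNA, a mean log2 difference of -1.02 (SE 0.37, limma adjusted p = 0.696). Cx3cl1 was not well above background with G0s2 siRNA on either day and was so with control siRNA on both. It was lower by at least 1.46-fold (limma adjusted p = 0.696). Cxcr7 was well above background on the control siRNA arrays of both days and on no other array. It passed the filter through that group alone, so no difference is given for it.

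Cxcl13 was -1.62 with G0s2 siRNA at day 2, against 0.31 with control siRNA, and at day 7 it was not well above background in either. Ccl5 was 2.14 and 0.22 with G0s2 siRNA, against 1.50 and -0.42 with control siRNA, and its mean log2 difference was 0.65 (SE 0.43). Ccl17 was well above background on 1 of 2 arrays with G0s2 siRNA and on none with control siRNA. Its difference has no fold (limma adjusted p = 0.696). Ccl2 was -2.14 at day 2 and -2.79, not well above background, at day 7 with G0s2 siRNA, against -0.56 and -2.69 with control siRNA, so these 2 arrays differed at day 2 by more than the SD of the spots, which is technical and holds no spread between animals. Of the Kupffer cell and macrophage markers 0 of 10 lay above 0 with G0s2 siRNA, with a median of -0.63 against 0.06 over all genes, and none passed. Their part was not tested.

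The siRNA arrays of day 2 stood apart from the other arrays of that day in several members, and they were compared with them after these values had been seen. Of the 32 members 5 rose in limma at an adjusted p under 0.05, against 1.25% of all genes, and 0 fell, against 0.17%. At an unadjusted p under 0.05, 11 were higher and 1 lower, against 8.96% and 6.18%. Cxcl9, Ccr3, Cxcr3, Ccl5 and Ccl24 were the 5. In 12 of 32 both siRNA arrays lay above the 4 others, against 17.8% of all genes, and in 2, Ccl25 and Cxcl11, below them, against 12.2%. No measured member was well above background on those 2 arrays alone. Both siRNA arrays of day 2 were on a slide of their own, so siRNA and slide cannot be told apart at that day.

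Cxcl9 was 4.51 with G0s2 siRNA and 3.81 with control siRNA at day 2, against 0.52 with ATRA+DEN, 0.57 with DEN, -0.25 with ATRA and 0.28 with vehicle. The siRNA arrays lay far above the other 4, by a mean log2 difference of 3.87, that is 14.7-fold (SE 0.27, limma adjusted p = 0.000396). At day 7 it was -0.14 with G0s2 siRNA and 0.15 with control siRNA, against values from 0.54 to 1.11 on the other 4 arrays. There both siRNA arrays were the lowest, with a difference of -0.78 (SE 0.27, limma adjusted p = 0.0823). The difference between the days was 4.65 (SE 0.39, limma adjusted p = 0.00225).

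Its receptor Cxcr3 was -1.14 with G0s2 siRNA and -1.54 with control siRNA at day 2. The other arrays were at -3.15 with ATRA+DEN, -2.86 with DEN, -2.85 with ATRA and -3.29, not well above background, with vehicle. Cxcr3 passed (limma adjusted p = 0.00999), but its rise has no exact size. Under the alternative settings its log2 difference lay between 0.48 and 1.90. Cxcl10 was 0.28 and 1.34 in these 2 arrays, against values from -0.81 to 0.12 on the others, and did not pass (difference 1.20, SE 0.45, limma adjusted p = 0.251). The promoters of both ligands are shown since these neighbouring genes were both above the other arrays. The 250 bases before each start are given 5′ to 3′ on the gene's strand, from RefSeq on GRCm38.p6, at chr5:92328080-92328329 for Cxcl9 and chr5:92348890-92349139 for Cxcl10, both on the minus strand, with NF-kB and ISRE matches in capitals. The loose NF-kB motif searched was GGG and CC with any 5 bases between them, and the interferon-response (ISRE) motif was GAAA and GAAA with any 2 bases between them.
Cxcl9 promoter: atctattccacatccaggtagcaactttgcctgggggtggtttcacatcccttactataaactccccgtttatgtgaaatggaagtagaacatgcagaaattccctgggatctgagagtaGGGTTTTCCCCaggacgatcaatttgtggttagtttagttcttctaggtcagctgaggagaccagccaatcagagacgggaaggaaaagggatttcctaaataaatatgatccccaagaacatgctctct
Cxcl10 promoter: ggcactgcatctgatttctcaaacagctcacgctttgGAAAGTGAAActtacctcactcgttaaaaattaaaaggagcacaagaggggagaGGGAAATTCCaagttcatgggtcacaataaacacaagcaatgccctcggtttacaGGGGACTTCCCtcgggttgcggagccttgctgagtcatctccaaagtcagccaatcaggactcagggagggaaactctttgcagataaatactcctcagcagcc
The Cxcl9 promoter holds overlapping NF-kB matches that begin 130 and 129 bases before the start and no ISRE match in this window, and TATAAA, in lower case, at 195 bases before the start. The Cxcl10 promoter holds an ISRE match at 213 bases and NF-kB matches at 159, 104 and 103 bases before the start. Both strands were searched, and a match that reads on both is given once. Over windows that run on to 50 bases after the start, 23 of the 32 members had a promoter in the table, 27 promoters in all. The NF-kB motif was in 16 of these 27 promoters and the ISRE motif in 3, against 50.8% and 3.44% of 32851 promoters. TTCNNNGAA, a STAT motif, was in 3 of the 27 and in 8.30% of all promoters, and TATAAA in 7 and in 13.6%.

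A receptor and its ligand rose at day 2. Ccr3, the eotaxin receptor, was 1.22 with G0s2 siRNA and 1.40 with control siRNA, against -0.68 with ATRA+DEN, -0.44 with DEN, -0.52 with ATRA and -0.64 with vehicle, 3.68-fold (limma adjusted p = 0.00943). Ccl24, an eotaxin that binds Ccr3, was 2.60 and 2.15 in the siRNA arrays, against values from 0.00 to 1.34 on the other 4, 3.20-fold (limma adjusted p = 0.0455). In both genes the siRNA arrays lay apart from the others at day 2 and overlapped with them at day 7. Ccl5, which binds Ccr3 among other receptors and draws T cells and eosinophils, was 2.14 and 1.50 with G0s2 and control siRNA, against values from -0.48 to 0.10, 3.97-fold (limma adjusted p = 0.0248).

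Other members lay above the 4 other arrays without passing. Ccr2, which binds Ccl2, was -1.85 with G0s2 siRNA and -1.36 with control siRNA, against -1.86 with ATRA+DEN, the only one of the other 4 on which it was well above background. Cxcl13 was -1.62 and 0.31, against -2.80 with vehicle, the only one of the other 4 arrays on which it was well above background (limma adjusted p = 0.0829). Cxcr6, the Cxcl16 receptor of T and NKT cells, was -0.50 and -0.21, against values from -1.49 to -0.96. At day 7, set against day 2 of the same treatment, 15 members were at least 2-fold lower with G0s2 siRNA and 16 with control siRNA, against 16.4% and 15.5% of all genes, and 2 to 4 in the other treatments, against 11.2% with DEN, 13.4% with ATRA+DEN, 11.4% with ATRA and 15% with vehicle. The falls with siRNA start from the day 2 arrays that were singled out for their high values, so they are no separate support. Members not well above background at day 7, such as Cxcl13 and Ccl4 with siRNA, are included. The plot of the siRNA arrays shows 8 members that lay above the other arrays at day 2.

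**Figure D4:**
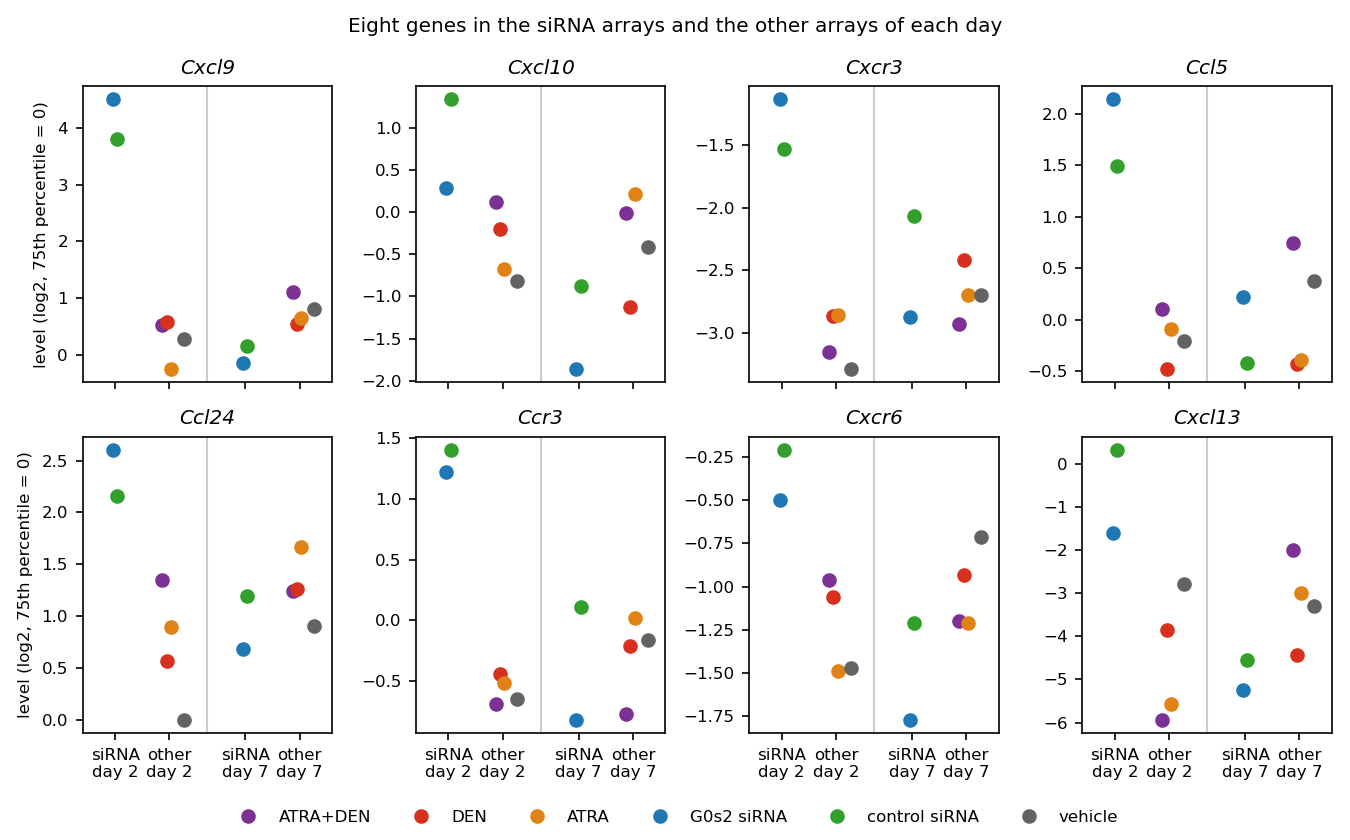
Level (log2, 75th percentile set to 0) of 8 genes on each array, siRNA arrays left of the other arrays at day 2 and at day 7, 1 point per array coloured by treatment. The genes shown are all from the members in which both siRNA arrays of day 2 lay above the other 4, so every panel shows this by choice. In Cxcl9 the values are 4.51 and 3.81 against at most 0.57. Members that overlapped or lay below are not shown.

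Markers of macrophages were higher in the same arrays, as were most single markers of T and NK cells, though not their summed level in both arrays. In this comparison 1.25% of all genes passed as higher, and the median log2 difference of all genes was 0.03. The share of all genes above 0 is not given. Of the Kupffer cell and macrophage markers 10 of 10 were higher in the siRNA arrays of day 2 and 7 passed, among them Cd5l by 2.26 (SE 0.19) and Clec4f, a marker of Kupffer cells, by 1.02 (SE 0.21). Their summed level was 7.50 with G0s2 siRNA and 8.10 with control siRNA, against 5.99 to 6.11 on the other 4 arrays. Of the T and NK cell markers 9 of 10 lay above 0 and 3 passed, Gzma by 3.04, Cd3d by 1.63, and Cd3g, which was well above background on both siRNA arrays and on 1 of the other 4, while Ncr1 and Klrb1c were not well above background on any array. The summed level of that list was 6.54 with G0s2 siRNA and 6.13 with control siRNA, against 6.03 to 6.36, so the control siRNA array lay within the others. Of the interferon response genes 9 of 10 lay above 0 and 1 passed, Irf7 by 2.95 (SE 0.54). Of the monocyte markers 3 of 4 lay above 0 and 1 passed, with a median of 1.12. Their summed level went the other way, at 4.38 with G0s2 siRNA and 4.80 with control siRNA, against 4.92 to 5.76. None passed among 6 neutrophil, 5 dendritic cell and 3 B cell markers, of which 4, 2 and 3 lay above 0. The part of these cells in the chemokine values was not tested.

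Of 9 signalling genes downstream of the receptors 3 rose, against 1.25% of all genes, namely Rac2 by 2.05 (SE 0.26), Gng2 by 1.55 (SE 0.12) and Rgs2 by 0.85 (SE 0.16). Of 10 related ligands and receptors 1 rose, against the same share, Cd74, a receptor chain for Mif, by 2.15 (SE 0.31). Apart from that of Cxcl9, the 5 calls depend on both siRNA arrays. Without either siRNA array of day 2 only Cxcl9 passed, with limma adjusted p = 0.00335 without the control siRNA array and 0.0053 without the G0s2 siRNA array, the lone siRNA array then taken to vary like the other arrays. Against the DEN and ATRA+DEN arrays alone 0 members passed in limma, against 0.00944% of all genes, and 9 of 32 had an unadjusted p under 0.05, against 11.9%. Cxcl9 then had a difference of 3.61 (limma adjusted p = 0.0511).

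At day 7 the siRNA arrays shared slide 4 with ATRA and ATRA+DEN. Against all 4 other arrays of day 7, 0 members rose and 2 fell in limma, against 7.60% and 7.73% of all genes. Cxcl11, whose values are uncertain, fell by 0.71, and the other was Ccr7, which Ccl19 binds. Ccr7 was well above background on 3 arrays of day 7, none of them with siRNA, so its fall has no exact size. At an unadjusted p under 0.05, 1 was higher and 8 lower, against 15.7% and 15.2%. In 1 both siRNA arrays lay above the 4 others and in 9 below them, against 20% and 18.1%. Against the 2 arrays of slide 4 none passed in limma, against 6.2% of all genes, and 8 of 32 had an unadjusted p under 0.05, against 24.9%, with Cxcl9 at -0.88 (SE 0.32, limma adjusted p = 0.136). In the test of day 2 against day 7, 3 of 32 members had a larger siRNA difference at day 2, against 1.57% of all genes, and 0 a smaller one, against 0.59%. Among them were Cxcl9 by 4.65 and Ccr3 by 1.95 (SE 0.37, limma adjusted p = 0.0338). At an unadjusted p under 0.05, 13 were larger and 0 smaller, against 10.6% and 7.97%. This test reuses the day 2 arrays that were singled out for their values.

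Day 7 was compared with day 2 over 6 pairs of the same treatment. Of 32 members 4 rose and 2 fell in limma, against 26.3% and 20.5% of all genes, so the shares of members were below the background. The median difference of all genes was 0.11, and day and slide cannot be told apart. Ccl19, which guides T cells and dendritic cells carrying Ccr7, lay between -0.26 and 0.65 with a median of 0.15 at day 7, against -0.94 to -0.44 with a median of -0.59 at day 2. The days did not overlap, and the difference was 0.78 (SE 0.14, limma adjusted p = 0.00464). This depends on the probe. Another Ccl19 probe, well above background on all 12 arrays, ran from -1.09 to -0.41 at day 7 and from -0.89 to -0.42 at day 2. The remaining probe kept the days apart, with -0.12 to 0.31 at day 7 and -1.05 to -0.48 at day 2.

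Cxcl1 lay between -0.21 and 1.31 with a median of 0.76 at day 7, against -0.62 to 0.62 with a median of 0.02 at day 2. The days overlapped, and the difference was 0.68 (SE 0.11, limma adjusted p = 0.00299). Ccl25 rose by 0.59 and Ccl6 by 0.58, the first without overlap of the days. Cxcl11, whose values are uncertain, fell by 1.11. Ccr10 was the other member counted as falling. It was well above background on none of 6 arrays at day 7 and 2 of 6 at day 2. It thus passed the filter through day 2 alone, so its call is not independent of the filter and no difference is given.

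By position on mm9, 14 of the 55 genes lie on chromosome 11, 12 on chromosome 9 and 11 on chromosome 5. Of 10 measured on chromosome 11, 2 lay above the 4 others in both siRNA arrays of day 2, as did 4 of 6 on chromosome 9, which carries the receptor genes Ccr2 and Ccr3, and 4 of 6 on chromosome 5, which carries Cxcl9 and Cxcl10. Without a test, over 12 pairs of arrays of the same day, 92 of 384 differences of members were at least 2-fold, 60 higher and 32 lower, against 4.27% and 3.87% of the differences of all genes. The pairs share arrays, and members not well above background are included. With normexp background correction 15 were, and the share of all genes under that correction is not given, so this count has no background to compare with.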

How the data were processed

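Liver RNA was measured on 1-colour Agilent arrays. The deposited array files hold processed intensities, background-subtracted by Agilent Feature Extraction, version 10.7.1.1 per the file headers and 9.5.1.1 per the submitters' processing notes. The authors' deposited series table holds intensities whose sorted values are almost equal within a day, and it was used as an alternative only. Intensities were log2 transformed and the 75th percentile of each array was subtracted. Control spots were left out and spots of 1 probe were averaged. Genes with their brightest probe well above background on at least 2 arrays were tested with limma 3.58.1 (R 4.3.3), Benjamini-Hochberg adjusted over 21181 genes at 0.05.

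DEN, ATRA and G0s2 siRNA effects were means over pairs of arrays with the pair as a block, the interaction had slide as a block, and day had treatment as a block. The 3 contrasts of siRNA arrays with other arrays were added after seeing the data to 5 planned tests, in a fit with 1 mean for siRNA arrays and 1 for other arrays on each day. A fold given as "at least" sets the brighter mean against the higher of the dim probe's signal and the lowest signal well above background on each array. Named members were the 3 largest rises and falls of 1 sign in every pair, plus 8 by mean level; other members named were chosen after their values were seen. Members and lists were chosen with earlier results of these data known. Values of 1 gene are not reported here, though counts include it. The number of arrays limits the precision. The fits were tested on simulated data. Summed levels are log2 of the summed intensities of a list. Sequences are from the array files and RefSeq.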

Additional observations from a re-analysis of the deposited data

Results flagged for a closer look

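The difference between the siRNA arrays and the other arrays of a day itself differed between day 2 and day 7 in Cxcl9 and Ccr3, by a test of that difference in limma. It was larger at day 2 by 4.65 for Cxcl9 and by 1.95 for Ccr3 on the log2 scale. With only the slide 4 arrays as others at day 7, the values were 4.75 (limma adjusted p = 0.0109) and 1.86 (0.0737). Against the DEN and ATRA+DEN arrays alone they were 4.43 and 1.74 and neither passed. The comparison was chosen after its values had been seen, and slide cannot be told apart from siRNA at day 2. No group has 4 arrays, so single arrays were not tested as outliers.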

How the results depend on the processing

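The counts of members passing were 0 for DEN, ATRA, their interaction and G0s2 siRNA under every alternative run, and 5 to 8 for day. For the siRNA arrays of day 2 the count of 5 became 1 without either siRNA array of that day, 0 with only the DEN and ATRA+DEN arrays as other arrays, and 4 to 6 otherwise. The 92 differences of at least 2-fold became 15 with normexp correction, whose added offset of 50 shrinks differences of dim probes. The share of all genes under it is not given. Of the named members, the DEN difference of Cxcr7 became -0.0054 with normexp. Under the day-7 groups of the treatment characteristic, the ATRA difference of Cxcl10 became -0.0072, and the interactions of Cxcl14, Ccr10 and Ccl9 became 0.029, 0.012 and 0.23. Leaving out a pair of arrays, the interaction of Ccr10 lay between -2.28 and 0.054, the highest without DEN and vehicle of day 2, and that of Ccl9 between -1.36 and 0.0037, the highest without ATRA+DEN and ATRA of day 7. The causes were not tested. Ccl25 lost its day call when probes were averaged (limma adjusted p = 0.076), Ccl24 its siRNA call under several settings and Cxcr3 with normexp (0.0524). Low signal limits Ccl8, Ccl17, Cxcr7 and Ccr10, which were above background on 2 arrays.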
